A study of Mus musculus with 27 samples.

Results

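Small RNAs of the chromatin fraction were set against those of the soluble nucleoplasm in mouse primary cortical neurons, named mCtx in the labels. All libraries labelled as mCtx chromatin or mCtx nucleoplasm were taken, 3 of each, which is 6 of the 27 libraries of the series. The neurons had been kept for 5 days in culture, and no sorting is stated, so other cells of the cortex may be present. Replicates are named biological, but separate cultures are not stated; a p value here therefore measures library spread that could be technical in origin. The series also holds the cytoplasm of these neurons and the same fractions of mNPC, a neural progenitor line, and mESC, the E14 embryonic stem cell line. RNA below 200 nt was depleted of rRNA and made into libraries of 120 to 160 bp, read for 100 bases. Whether the value of a longer RNA stands for the whole molecule or for pieces of it cannot be told apart.

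Small nucleolar RNAs (snoRNAs) guide chemical changes of ribosomal and spliceosomal RNA. Most vertebrate snoRNAs are cut out of introns of host genes, and they work in the nucleolus and in Cajal bodies. Those with C and D boxes guide methylation of the ribose, and those with H and ACA boxes guide pseudouridylation. MicroRNAs (miRNAs) are trimmed to hairpins in the nucleus and exported, and the mature strand acts mainly in the cytoplasm, although mature miRNAs are also found in nuclei. Transfer RNAs (tRNAs) are trimmed and modified in the nucleus before export.

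The snoRNAs on which the comparison turns are shown first, as DNA letters of the transcript strand from GENCODE on the GRCm38 genome. Capitals mark TGATGA, a form of the C box, where it lies in the first 20 bases, and CTGA, the D box, where it lies in the last 20 bases. In Snora31 they mark the ACA that stands 3 bases from the end. Snord96a lies within the Rack1 gene at chr11:48802032-48802112 and Gm22455 within Rpl4 at chr9:64177123-64177193. Snord104 is at chr11:106500993-106501062, and Snora31 lies in an intron of Tpt1 at chr14:75847905-75848034. Gm24453 and Gm22680 lie within Snhg1 at chr19:8724868-8724943 and chr19:8725341-8725409. The first 3 and Snora31 were higher in chromatin, and the Snhg1 pair were called in opposite directions.
Snord96a: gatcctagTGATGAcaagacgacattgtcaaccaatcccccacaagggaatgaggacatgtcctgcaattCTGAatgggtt
Gm22455: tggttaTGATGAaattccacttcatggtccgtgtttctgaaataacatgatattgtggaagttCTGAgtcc
Snord104: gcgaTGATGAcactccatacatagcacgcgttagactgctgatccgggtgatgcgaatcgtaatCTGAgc
Gm24453: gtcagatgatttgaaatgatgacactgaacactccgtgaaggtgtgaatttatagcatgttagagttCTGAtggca
Gm22680: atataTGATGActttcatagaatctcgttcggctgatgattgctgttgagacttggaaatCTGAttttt
Snora31: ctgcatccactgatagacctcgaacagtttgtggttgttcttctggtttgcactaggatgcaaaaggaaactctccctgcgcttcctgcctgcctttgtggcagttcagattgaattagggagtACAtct

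The miRNAs that carry the comparison are shown next, as mature sequences from RefSeq for GRCm38.p6, with the seed (bases 2 to 8, which pair with targets) in capitals. miR-423-5p and miR-22-3p were lower in chromatin. The others are grouped by shared seed, because members of a seed group could differ between the fractions, and miR-130a-3p is shown for its difference between cell types.
miR-423-5p: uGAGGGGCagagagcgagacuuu
miR-22-3p: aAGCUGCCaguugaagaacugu
miR-30a-5p: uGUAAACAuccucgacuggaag
miR-30e-5p: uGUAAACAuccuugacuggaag
miR-384-5p: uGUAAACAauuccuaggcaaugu
miR-92b-3p: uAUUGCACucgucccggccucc
miR-25-3p: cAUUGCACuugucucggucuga
miR-92a-3p: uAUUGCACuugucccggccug
miR-181a-5p: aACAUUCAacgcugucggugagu
miR-181b-5p: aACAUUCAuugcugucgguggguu
miR-181c-5p: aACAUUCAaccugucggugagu
miR-19a-3p: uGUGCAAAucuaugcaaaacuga
miR-19b-3p: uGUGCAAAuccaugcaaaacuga
miR-130a-3p: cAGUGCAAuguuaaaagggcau

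The deposited table gave 1013 annotated small RNAs, called entries here, in RPM, which are reads on a common scale per library. The listed values summed to 80.5% to 85.1% of that scale in chromatin and 93.9% to 94.4% in nucleoplasm. Between 450 and 483 entries were above 0 in a chromatin library, and between 527 and 576 in a nucleoplasm library. The lowest listed value, the floor, was 19.4 to 25.1 RPM in chromatin and 5.16 to 8.42 RPM in nucleoplasm. An entry under about 25.1 RPM could thus be listed in nucleoplasm alone, and a 0 is not read as absence. Depth is unknown. RPM are shares of a library and give no amounts, and in bulk fractions fewer cells of a type and less RNA per cell cannot be told apart.

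The neuronal label was checked against miRNAs known from brain cells. miR-124-3p, which is enriched in neurons, had 1053, 914 and 957 RPM in chromatin and 1374, 1537 and 897 RPM in nucleoplasm at its chromosome 14 locus. All 17 entries of the stem cell miRNA list were at 0 in the 6 libraries. The 4 glial miRNAs summed to 50.2 to 75.6 RPM in chromatin and 60.1 to 107.8 RPM in nucleoplasm, and 1 was called, as lower. The 5 microglial and blood miRNAs summed to 26.0 to 37.7 RPM in chromatin and 26.1 to 42.9 RPM in nucleoplasm, with miR-142a-3p, miR-150-5p and miR-155-5p at 0 throughout, and 1 was called, as lower. Summed over its entries, miR-142a was at 0 in chromatin and had 12.6, 15.5 and 10.1 RPM in nucleoplasm, under the highest chromatin floor. The 10 endothelial and mesenchymal miRNAs, mostly miR-143-3p, summed to 2192 to 2920 RPM in chromatin and 3602 to 4158 RPM in nucleoplasm. Of 9 tested, 6 were called lower and 0 higher, beside 17.2% and 14.9% of all entries tested, and 6 were lower with class totals. The 2 entries above 0 in all 6 libraries differed by -0.46 and -0.45 in log2 and were not called. The 6 calls thus fell on entries with a 0 in some library, and class totals leave a 0 at 0. The summed ranges of this list do not overlap, and its part in the results was not tested.

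snoRNA took a far larger share of the listed reads in chromatin, and miRNA a smaller one. snoRNA made up 22.0% ± 1.31 of listed RPM in chromatin and 1.37% ± 0.24 in nucleoplasm (SD, n = 3 each), a 16.0-fold ratio. In the cytoplasm of the same neurons it was 0.0564% ± 0.00505 (SD, n = 3). miRNA made up 74.4% ± 1.21 of chromatin and 95.9% ± 0.215 of nucleoplasm (SD, n = 3 each). The libraries of the fractions did not overlap for either class.

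Pieces of tRNA, listed apart from tRNA as fragments of the 3' end (tRF3) or the 5' end (tRF5), took 0.467% ± 0.0288 of chromatin and 0.0569% ± 0.0057 of nucleoplasm (SD, n = 3 each). Small nuclear RNAs (snRNAs), the RNA parts of the spliceosome and related particles, took 0.591% ± 0.0473 of chromatin and 0.139% ± 0.0214 of nucleoplasm (SD, n = 3 each). Ribosomal RNA left after depletion took 0.0168% ± 0.00258 of chromatin and 0.0826% ± 0.0101 of nucleoplasm (SD, n = 3 each). tRNA had close means, with 2.37% ± 0.16 in chromatin and 2.32% ± 0.107 in nucleoplasm (SD, n = 3 each), beside 11.3% ± 0.673 in cytoplasm (SD, n = 3).

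With 3 libraries against 3, a two-sided exact permutation test over the 20 assignments cannot go below p = 0.1. In that exact test miRNA, snoRNA, tRNA fragments, snRNA, rRNA and piRNA reached p = 0.1 (adjusted p = 0.117 over 7 classes), and tRNA had p = 0.6. No class share could pass 0.05 by design.

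**Figure D1:**
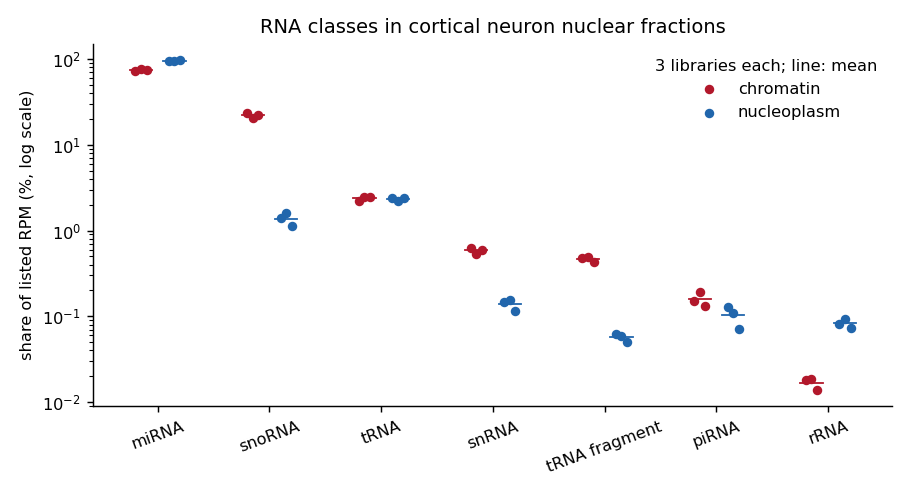
Share of listed RPM (percent, log scale) of each RNA class in the 3 chromatin libraries and the 3 nucleoplasm libraries of cortical neurons; points are libraries and lines are means. snoRNA averages 22.0% in chromatin and 1.37% in nucleoplasm, while tRNA averages 2.37% in chromatin and 2.32% in nucleoplasm.

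Of 851 entries tested with limma on log2(RPM + 1), 273 passed an adjusted p of 0.05, which is 32.1%. There were 127 higher in chromatin, 14.9% of those tested, and 146 lower, 17.2%. Higher entries made up 46.5% of the calls. That share was 60.2% with every value under a common floor of 25.1 RPM, zeros included, raised to that floor. It was 35.1% with each library scaled to one median, and 39.9% with values scaled to class totals. With class totals 73 entries were higher, 8.58%, and 110 lower, 12.9%. Restricting the count to the 343 entries above 0 in every one of the 6 libraries left 58 higher, 16.9%, and 39 lower, 11.4%. Of the 146 lower entries, 89 were at 0 in every chromatin library, and 52 of those had nucleoplasm values all under the highest chromatin floor.

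The median log2 difference of those 343 entries was -0.25 as deposited, -0.91 with one median and 0.04 with class totals. Values below are on the deposited scale.

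Of 196 snoRNAs tested, 94 were higher in chromatin and 10 lower, beside 14.9% and 17.2% of all entries tested, and 38 were listed at 0 in all 6 libraries. With class totals 40 were higher and 15 lower. All 60 snoRNAs above 0 in the 6 libraries had every chromatin value above every nucleoplasm value, where 230 of the 343 entries, 67.1%, had no overlap in either direction. Their median log2 difference was 3.85, with a range of 1.99 to 5.73, and 45 of them passed as higher. The median was 3.19 with one median and 0.04 with class totals, which centre each class on itself.

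Snord96a, a C/D box snoRNA within Rack1 and shown above, had 2259, 2287 and 1885 RPM in chromatin and 32.0, 51.9 and 36.1 RPM in nucleoplasm. Every chromatin library was far above every nucleoplasm library. The log2 difference was 5.73 ± 0.50 (SE; adjusted p by limma = 9.47e-09), and it stayed called with class totals, at 1.94. Snord118, the U8 RNA needed for processing of the large ribosomal subunit RNAs, had 1386, 1353 and 1358 RPM in chromatin and 39.2, 32.5 and 12.9 RPM in nucleoplasm. The groups were again far apart, with a log2 difference of 5.69 ± 1.06 (SE; adjusted p by limma = 0.000292).

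Snord1a had 1539.8, 1698 and 2132 RPM in chromatin and 53.1, 45.9 and 60.4 RPM in nucleoplasm, without overlap. Its log2 difference was 5.04 ± 0.33 (SE; adjusted p by limma = 8.20e-11), and 1.24 with class totals, still called. Gm22455, within the ribosomal protein gene Rpl4, had 2123, 1919 and 1986 RPM in chromatin and 73.7, 90.6 and 97.5 RPM in nucleoplasm. These libraries were close together within each fraction, and the log2 difference was 4.52 ± 0.30 (SE; adjusted p by limma = 1.27e-10). The rest of the 10 largest rises were Gm24453 (in Snhg1), Gm25835 (in Eif4a1, a translation initiation factor), Snord21 (in Rpl5), Snord66 (in Eif4g1), Snord82 (in Ncl, nucleolin) and Snord78 (in Gas5). Their log2 differences ran from 4.49 to 5.22, with limma adjusted p from 0.000397 to 0.0303. With class totals Snord96a and Snord1a were the only called entries of the 10.

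**Figure D2:**
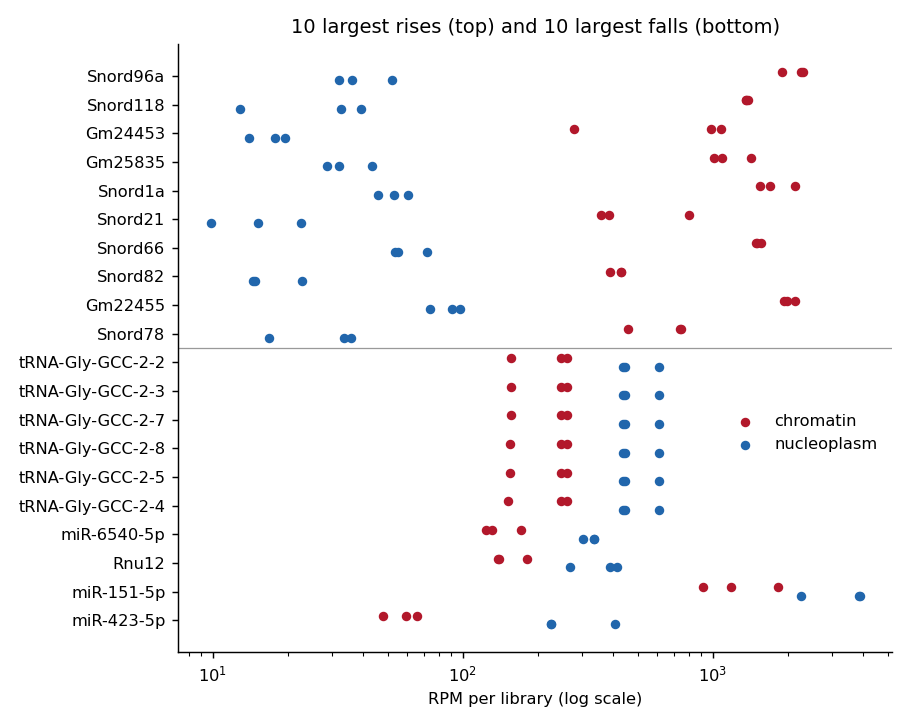
RPM per library (log scale) of the 10 entries with the largest rise and the 10 with the largest fall among called entries above 0 in all 6 libraries, in 3 chromatin and 3 nucleoplasm libraries. The fractions do not overlap in any of them, and the log2 differences reach 5.73 for the rises and -2.25 for the falls.

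Some snoRNAs were among the most abundant entries of chromatin. Snord104 had 22666, 23042 and 26175 RPM in chromatin and was listed at 0 in all 3 nucleoplasm libraries (limma adjusted p = 0.000691). In the cytoplasm of the same neurons it had 207, 119 and 97.4 RPM, and the listed 0 of the nucleoplasm is not read as absence. Snord52 had 20963, 20555 and 20449.7 RPM in chromatin and 2065, 2188 and 1429 RPM in nucleoplasm, a log2 difference of 3.47 ± 1.30 (SE; adjusted p by limma = 0.0465). With class totals its difference turned to -0.36 without a call. Snord57, within Nop56, whose product is a core protein of C/D box particles, had 12309, 12120 and 11006 RPM in chromatin and 830.4, 880.3 and 626 RPM in nucleoplasm, a log2 difference of 3.93 ± 1.17 (SE; adjusted p by limma = 0.0129), and 0.11 without a call with class totals. Snord99, within Snhg12, had 21328, 16278 and 18923 RPM in chromatin and 568, 798 and 481 RPM in nucleoplasm. Its groups did not overlap, but the log2 difference of 4.96 ± 2.49 (SE; adjusted p by limma = 0.164) missed the threshold. With the 6 neuron libraries fitted alone, its limma adjusted p was 1.02e-05.

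Further snoRNAs were listed at 0 in all 3 nucleoplasm libraries. Snord13, which is known to guide acetylation of the small ribosomal subunit RNA, had 1846, 1353 and 1558 RPM in chromatin. AF357428 had 1374, 1269 and 1439.9 RPM and Gm24455, within Taf1d, had 1266, 848 and 1255 RPM in chromatin. All 3 were called higher (limma adjusted p from 1.56e-06 to 0.00169), and no fold is given against a group at 0.

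By name, 41 of 74 tested Snord entries were higher and 4 lower, and 7 of 18 Snora entries were higher and 1 lower. Of 91 tested snoRNAs known as predicted genes (Gm numbers), 41 were higher and 5 lower. Of all tested snoRNAs, 48.0% were higher and 5.1% lower. With class totals the Snord entries had 17 higher and 7 lower, the Snora entries 3 and 1, and the Gm entries 19 and 5. Snora31, an H/ACA snoRNA, had 257, 207 and 191 RPM in chromatin and 17.3, 10.1 and 8.26 RPM in nucleoplasm. Chromatin was higher in every library, with a log2 difference of 4.14 ± 0.40 (SE; adjusted p by limma = 4.14e-08), and 0.43 without a call with class totals. Scarna9, a guide RNA of Cajal bodies, had 687, 549 and 545 RPM in chromatin and 57.3, 59.6 and 44.4 RPM in nucleoplasm, a log2 difference of 3.44 ± 0.63 (SE; adjusted p by limma = 0.000235). With class totals it turned to -0.36 without a call. Rnu3a, a U3 RNA needed to cut the ribosomal precursor, had 219.6, 149.7 and 146 RPM in chromatin and 83.5, 28.6 and 22.7 RPM in nucleoplasm, without overlap. Its log2 difference was 2.12 ± 0.37 (SE; adjusted p by limma = 0.000129), but with class totals it was called lower, at -1.67.

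Box letters were searched on the transcript strand of the 238 snoRNA entries with a GENCODE sequence. TGATGA in the first 20 bases together with CTGA in the last 20 occurred in 111 of them, 46.6%. ACA placed 3 bases from the end, without that pair, occurred in 45, or 18.9%, and 82 had neither. Those 82 are not all entries without boxes, since CTGA in the last 20 bases, with or without TGATGA, occurred in 175 of the 238. The 82 include 30 of the 78 Snord entries. Of the tested entries with the C and D letters, 55 of 97 were higher and 5 lower. Of those with ACA, 11 of 32 were higher and 1 lower, and of those with neither, 28 of 66 were higher and 4 lower. The median log2 difference was 3.82 over 35 entries with C and D letters, 2.74 over 3 with ACA and 3.87 over 22 with neither. All of these entries were above 0 in the 6 libraries. Entries with ACA had a median length of 135 bases, and those with C and D letters 75. A match of letters is a description and no proof of a working box.

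The 10 snoRNAs lower in chromatin were all listed at 0 there. Gm22680, within Snhg1, a host gene of several snoRNAs, had 909, 1245 and 634 RPM in nucleoplasm (limma adjusted p = 0.00179). Gm24453 in the same host had 279, 1073 and 980.4 RPM in chromatin and 17.7, 13.9 and 19.4 RPM in nucleoplasm, a log2 difference of 5.22 ± 1.02 (SE; adjusted p by limma = 0.000448). These snoRNAs of a single host were called in opposite directions, but the call of Gm22680 rests on a listed 0, which is not read as absence. Gm22744, also in Snhg1, had 0, 6942 and 7334 RPM in chromatin and 462, 779 and 524 RPM in nucleoplasm, and chromatin replicate 1 was the library at 0. Gm24452, another of this host, was at 0 in chromatin and had 462, 476 and 0 RPM in nucleoplasm (limma adjusted p = 0.0131, and 0.0746 with class totals). Gm23246 had 5666, 4169 and 3938 RPM in chromatin and 300.2, 326 and 233 RPM in nucleoplasm, without overlap, and did not pass (limma adjusted p = 0.274). With the 6 neuron libraries fitted alone, its limma adjusted p was 1.58e-05. Outside Snhg1, Gm23969, within the ribosomal protein gene Rpl7a, was at 0 in chromatin and had 243, 245 and 229 RPM in nucleoplasm (limma adjusted p = 4.84e-05). Snord95 (chr11:48803139-48803206), near the higher Snord96a, was at 0 in chromatin with 163, 111 and 122 RPM in nucleoplasm (limma adjusted p = 0.00467). Gm23187 (chr2:130277195-130277280), near the higher Snord57, was at 0 in chromatin with 48.8, 61.2 and 44.9 RPM in nucleoplasm (limma adjusted p = 5.88e-15). Opposite calls of neighbours were thus not confined to Snhg1, and these too rest on a listed 0.

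A 0 beside high values occurred across the table. There were 12 entries at 0 in all 3 libraries of one fraction and over 10 times the highest floor in all 3 of the other. In addition, 31 entries had both a 0 and a value over that bound within a single fraction. The rule by which reads matching several annotations were assigned is not given in the sources used here, and its part in these zeros was not tested.

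**Figure D3:**
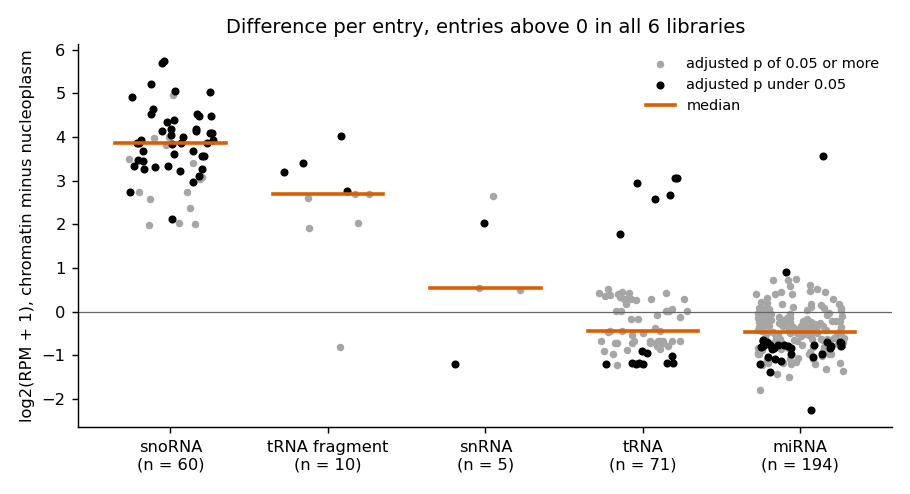
Difference in log2(RPM + 1), chromatin minus nucleoplasm, of entries above 0 in all 6 libraries, by class; points are entries, marked by whether they passed an adjusted p of 0.05, and bars are medians. All 60 snoRNAs lie above 0 with a median of 3.85, while the 194 miRNAs have a median of -0.47.

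miRNAs made up most of the lower calls. Of 418 tested miRNA entries, 7 were higher in chromatin and 110 lower, beside 14.9% and 17.2% of all entries. Of the 110, 67 were at 0 in all chromatin libraries, and 44 of these had nucleoplasm values all under the highest chromatin floor. Of the 194 above 0 in each of the 6 libraries, 2 were higher and 28 lower. Their median log2 difference was -0.47, which became -1.14 with one median and 0.07 with class totals. Across the 179 miRNA entries above 0 in the 9 neuron libraries, Pearson's r of mean log2 levels was 0.978 between chromatin and nucleoplasm. Copies of a miRNA share reads, so these entries are not independent.

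miR-423-5p had the largest fall among the entries above 0 in all 6 that were called, with 59.0, 48.1 and 65.3 RPM in chromatin and 406, 226 and 226 RPM in nucleoplasm. The groups were well apart, with a log2 difference of -2.25 ± 0.31 (SE; adjusted p by limma = 8.49e-06), and -1.70 with class totals. Summed with its hairpin and other arm, miR-423 had 449, 299 and 330.2 RPM in chromatin and 868, 600.0 and 412 RPM in nucleoplasm, a difference of -0.76 ± 0.31 (SE; adjusted p by limma = 0.0805) that did not pass.

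miR-151-5p, from an intron of Ptk2, had 1815, 909 and 1185 RPM in chromatin and 3876, 3846 and 2261 RPM in nucleoplasm. Chromatin was lower throughout, with a log2 difference of -1.37 ± 0.36 (SE; adjusted p by limma = 0.00553). miR-6540-5p, from an intron of Gap43, a gene of growing axons, had 171, 124 and 131 RPM in chromatin and 336, 302 and 335 RPM in nucleoplasm, a log2 difference of -1.20 ± 0.26 (SE; adjusted p by limma = 0.00101). Both lost their calls with class totals, at -0.82 for miR-151-5p and -0.65 for miR-6540-5p. The remaining called falls in this class ran from -1.13 in miR-758-3p to -0.65 in miR-1298-5p.

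The most abundant miRNA of both fractions was miR-181a-5p, listed at chr1:137966468-137966490 and at a copy on chromosome 2 with nearly the same values. At the first locus it had 85859.6, 95183 and 102690 RPM in chromatin and 123836, 137528 and 168794 RPM in nucleoplasm. The groups did not overlap, but the log2 difference of -0.59 ± 1.34 (SE; adjusted p by limma = 0.973) did not pass. With the 6 neuron libraries alone its limma adjusted p was 0.0161. miR-181b-5p, which shares its seed, had 5122, 5460.3 and 5883 RPM in chromatin and 9164, 8569 and 10041 RPM in nucleoplasm at its chromosome 2 locus, a log2 difference of -0.75 ± 0.22 (SE; adjusted p by limma = 0.0129), and -0.20 without a call with class totals. Of 10 tested miR-181 entries 6 were lower and 0 higher, and 2 were lower with class totals. Lower calls made up 17.2% of all entries tested and 26.3% of miRNA entries. The lower miR-181 entries above 0 in all 6 libraries were miR-181a-1-3p, miR-181c-3p and both copies of miR-181b-5p, which share reads.

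miR-22-3p had 18435, 18128 and 19656 RPM in chromatin and 32571, 36259 and 30542 RPM in nucleoplasm. Every chromatin library was lower, with a log2 difference of -0.82 ± 0.25 (SE; adjusted p by limma = 0.016), and -0.27 without a call with class totals. miR-30d-5p had 15573, 12658 and 14123 RPM in chromatin and 26039, 23604 and 22228 RPM in nucleoplasm, a log2 difference of -0.76 ± 0.15 (SE; adjusted p by limma = 0.000439), and was the called member among 10 tested miR-30 entries. With class totals its difference was -0.21 without a call. Its family members miR-30a-5p and miR-30e-5p overlapped between the fractions. miR-30a-5p had 19865, 24875 and 22683 RPM in chromatin and 23011, 23059 and 22429 RPM in nucleoplasm, a log2 difference of -0.03 ± 0.23 (SE; adjusted p by limma = 1), and 0.52 without a call with class totals. For miR-30e-5p the values were 12583, 13471 and 13073 RPM in chromatin and 12234, 13509 and 10582 RPM in nucleoplasm, a log2 difference of 0.11 ± 0.23 (SE; adjusted p by limma = 0.934). That of miR-30e-5p was 0.67 with a call with class totals and -0.56 without one with one median. miR-384-5p, with the same seed, was at 0 in chromatin and had 162, 192 and 189 RPM in nucleoplasm (limma adjusted p = 2.63e-15).

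The seed group of miR-25 and miR-92 held an exception to the falls. miR-92b-3p had 213, 205 and 168 RPM in chromatin and 115, 99.1 and 95.5 RPM in nucleoplasm. Every chromatin library was higher, with a log2 difference of 0.91 ± 0.32 (SE; adjusted p by limma = 0.034), 1.46 with class totals, and 0.25 without a call with one median. miR-25-3p had 2352, 2640.1 and 2120.3 RPM in chromatin and 2066, 1795 and 1846 RPM in nucleoplasm, without overlap and without passing (limma adjusted p = 0.477). It did not pass with the 6 neuron libraries fitted alone either (limma adjusted p = 0.0631). Its difference was 0.31 as deposited, 0.87 with a call with class totals, and -0.36 without one with one median. miR-92a-3p on chromosome 14 had 1145, 1156 and 911 RPM in chromatin and 1270.0, 948 and 824 RPM in nucleoplasm, which overlapped.

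Other miRNA entries higher in chromatin were of mixed kinds. miR-5099 had 814, 775 and 604 RPM in chromatin and 68.8, 72.7 and 43.2 RPM in nucleoplasm, a log2 difference of 3.57 ± 0.86 (SE; adjusted p by limma = 0.00295). miR-3535 had 442, 405 and 495 RPM in chromatin and 0, 41.0 and 20.1 RPM in nucleoplasm. Its entry lies inside that of the snoRNA Gm24148, so reads of the pair cannot be told apart. The hairpins of miR-326 and miR-296 and the arm let-7d-3p were also called higher, at 25.1 to 159.9 RPM in chromatin.

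miR-21a was listed under different entries in the fractions. Its hairpin had 1629.6, 2622 and 2455 RPM in chromatin and 0 in nucleoplasm, while miR-21a-5p was at 0 in chromatin and had 2473, 3176 and 3133 RPM in nucleoplasm. They were called in opposite directions (limma adjusted p = 0.0135 for the hairpin and 0.00363 for the arm). In the cytoplasm of the same neurons the hairpin had 3451, 0 and 0 RPM, and miR-21a-5p had 0, 3129 and 2743 RPM. The entry listed thus also changed between libraries of a single fraction. Summed over hairpin and arms, miR-21a had 1629.6, 2663 and 2455 RPM in chromatin and 2473, 3176 and 3133 RPM in nucleoplasm, and the log2 difference of -0.40 ± 1.77 (SE; adjusted p by limma = 1) did not pass. With all miRNAs summed in this way, 4 of 280 were higher, 1.43%, and 72 lower, 25.7%.

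The imprinted Dlk1-Dio3 domain, which encodes many miRNAs of brain, had 23 of 53 tested entries lower and 0 higher, beside 17.2% lower and 14.9% higher of all entries, and 17 lower with class totals. Of the domain's miRNAs called lower, those above 0 in all 6 were miR-758-3p, miR-434-5p, miR-337-5p, miR-431-5p and miR-410-3p. Most of the lower calls thus had a 0 in some library, where the floors of the fractions differ, and class totals leave a 0 at 0. The domain's 23 entries above 0 in all 6 had a median log2 difference of -0.69. miR-410-3p of that domain had 5760.2, 6621 and 5865 RPM in chromatin and 9213, 9538 and 10806 RPM in nucleoplasm, a log2 difference of -0.70 ± 0.20 (SE; adjusted p by limma = 0.011), and -0.14 without a call with class totals. The neuronal list had 4 of 30 lower and 0 higher, with a median of -0.41 over the 24 above 0 in all 6. let-7 and miR-98 had 1 lower and 1 higher of 18. The miR-17 family clusters had 4 lower and 0 higher of 24, which became 3 lower and 4 higher with class totals. The shares lower in the neuronal, let-7 and miR-17 lists did not exceed the 17.2% of all entries. By arm, 46 of 197 tested 5' arms were lower and 0 higher, and 60 of 192 3' arms were lower and 2 higher.

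Of 159 tested tRNA entries, 9 were higher in chromatin and 22 lower, shares below the 14.9% and 17.2% of all entries. The calls lay mostly in Lys-TTT and Gly-GCC. Copies of a tRNA gene can share reads, so entries of an anticodon are not taken as independent. They were not all alike, and the 6 Lys-TTT entries above 0 in all 6 libraries ran from 1.79 to 3.05 in log2. tRNA-Lys-TTT made up 8 of the 9 higher entries. tRNA-Lys-TTT-1-6 had 1506, 1399 and 1501 RPM in chromatin and 166, 207 and 158 RPM in nucleoplasm. Chromatin was far higher in every library, with a log2 difference of 3.05 ± 0.39 (SE; adjusted p by limma = 3.08e-06), 3.22 with class totals and 2.39 with one median. Of the 9 tested tRNA-Lys-CTT entries, the other lysine tRNA, 0 passed with limma in either direction, and their median was -0.71. With one median all 9 were called lower.

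tRNA-Gly-GCC went the other way, with 14 of 15 tested entries lower. tRNA-Gly-GCC-2-2 had 156, 246 and 261 RPM in chromatin and 445, 436 and 607 RPM in nucleoplasm. Chromatin was lower in every library, with a log2 difference of -1.18 ± 0.32 (SE; adjusted p by limma = 0.00687). Over the 10 Gly-GCC entries above 0 in all 6 the median was -1.18, and -1.03 with class totals. The 4 such entries of Gly-CCC had a median of 0.14. tRNA-Val-CAC-2-1 had 517, 659 and 650.1 RPM in chromatin and 1054, 908 and 939 RPM in nucleoplasm, without overlap, and did not pass (limma adjusted p = 0.217), though it was called lower with one median, at -1.34. Fitted on the 6 neuron libraries alone, it had a limma adjusted p of 0.00717.

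**Figure D4:**
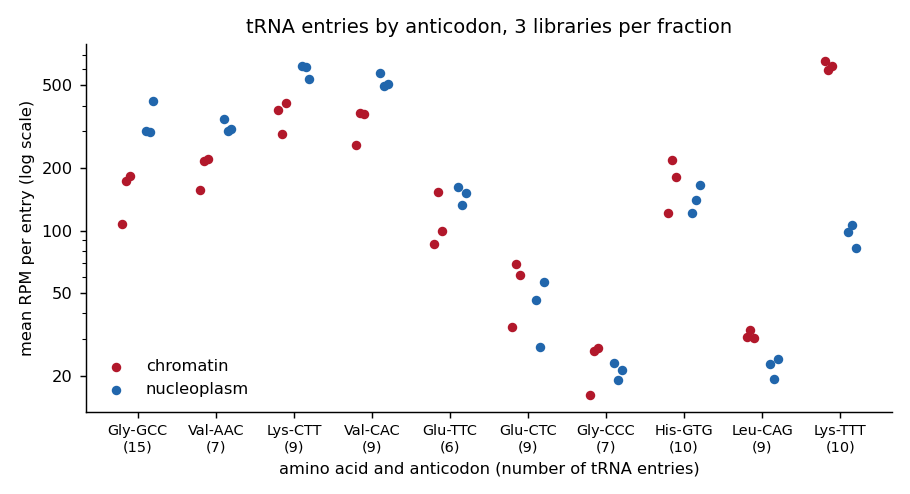
Mean RPM per tRNA entry (log scale) by amino acid and anticodon in the 3 chromatin libraries and the 3 nucleoplasm libraries, for anticodons with at least 4 entries above 0 in all 6. Lys-TTT is higher in chromatin, with a median log2 difference of 2.81, and Gly-GCC is lower, with -1.18.

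tRNA fragments were higher in chromatin in 8 of 28 tested entries and lower in 0, beside 14.9% and 17.2% of all entries, and 4 were higher with class totals. The 10 above 0 in all 6 had a median log2 difference of 2.71, which was 2.04 with one median and -0.12 with class totals. tRNA-His-GTG-2-1-tRF3, a 3' fragment of a histidine tRNA, had 1079.7, 905 and 1017 RPM in chromatin and was at 0 in nucleoplasm (limma adjusted p = 3.21e-05). tRNA-His-GTG-2-3-tRF5, a 5' fragment, had 604, 560.2 and 616 RPM in chromatin and was at 0 in nucleoplasm (limma adjusted p = 0.00119). Of the 10 tested histidine tRNA entries themselves, 0 were higher and 1 lower. tRNA-Asp-GTC-1-11-tRF3 had 166, 271 and 183 RPM in chromatin and 15.2, 11.6 and 8.64 RPM in nucleoplasm, a log2 difference of 4.02 ± 0.88 (SE; adjusted p by limma = 0.00132). tRNA-Tyr-GTA-6-1-tRF3 had 118, 164 and 134 RPM in chromatin and 293, 232 and 207 RPM in nucleoplasm, the one negative difference of the 10, and did not pass (limma adjusted p = 0.822). Fitted on the 6 neuron libraries alone, it had a limma adjusted p of 0.0158.

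Of 25 tested snRNAs, 8 were higher and 2 lower, beside 14.9% and 17.2% of all entries. With class totals 1 was higher and 2 lower. Rnu12, the U12 RNA of the minor spliceosome, had 139, 139.5 and 181 RPM in chromatin and 414, 388 and 267 RPM in nucleoplasm. Chromatin was lower in every library, with a log2 difference of -1.20 ± 0.26 (SE; adjusted p by limma = 0.00119). Gm22710 was higher, with 59.0, 58.2 and 92.9 RPM in chromatin and 21.1, 12.4 and 15.5 RPM in nucleoplasm and a log2 difference of 2.03 ± 0.65 (SE; adjusted p by limma = 0.0203). Rnu2-10, a U2 gene, had 0, 287 and 333 RPM in chromatin and 0, 0 and 23.5 RPM in nucleoplasm, and 4 further entries had nearly the same values. All 5 were called higher (limma adjusted p = 0.041) but Rnu2-10 was not with the 6 neuron libraries alone, nor with class totals. Rnu7, whose RNA takes part in histone mRNA end processing, had 263, 151 and 208 RPM in chromatin and 34.5, 42.6 and 21.2 RPM in nucleoplasm, without overlap, and missed the threshold (limma adjusted p = 0.0938). Its limma adjusted p was 0.00117 with the 6 neuron libraries fitted alone.

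The differences of the neurons were then set against those of mNPC and mESC by interaction terms of the same fit. Against mNPC, 116 of 851 entries passed, 13.6%, with 31 higher in mCtx, 3.64%, and 85 lower, 9.99%. Of the 186 entries above 0 in all 12 libraries 3 passed, 1.61%, all of them miRNAs. miR-92b-3p differed between the fractions by 0.91 in mCtx and -1.06 in mNPC (interaction 1.97, limma adjusted p = 0.00472). miR-19a-3p differed by 0.45 in mCtx and -0.69 in mNPC (interaction 1.14, limma adjusted p = 0.0279). miR-130a-3p differed by -0.14 in mCtx and -0.83 in mNPC (interaction 0.69, limma adjusted p = 0.0248). With one median the mCtx difference of miR-19a-3p was -0.21, and that of miR-130a-3p was 0.41 with class totals. None of these 3 passed when limma was fitted on those 186 entries alone.

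Against mESC, 281 entries passed, 33.0%, with 171 higher in mCtx, 20.1%, and 110 lower, 12.9%. With class totals 110 were higher in mCtx and 100 lower. The miRNA share of listed RPM was 73.3% to 75.7% in mCtx chromatin and 95.8% to 96.2% in mCtx nucleoplasm. In mESC it was 24.7% to 30.4% in chromatin and 78.7% to 81.9% in nucleoplasm, and the part of these shares in the entries' interactions was tested only through class totals. Of the 193 above 0 in all 12 libraries, 64 passed, 33.2%, and 53 of these were higher in mCtx, 27.5%. miRNAs supplied 49 of the 53, of 90 tested, and tRNAs all 11 of the lower ones. The 90 miRNAs had a median log2 difference of -0.41 in mCtx and -1.69 in mESC. miR-130a-3p had -0.14 in mCtx and -2.01 in mESC (interaction 1.87, limma adjusted p = 2.25e-07). miR-30e-5p had 0.11 in mCtx and -1.99 in mESC (interaction 2.10, limma adjusted p = 4.45e-05). The 28 snoRNAs had medians of 3.93 in mCtx and 3.27 in mESC, and 1 of them passed.

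tRNA-Gly-GCC-2-2 differed by -1.18 in mCtx and 0.68 in mESC (interaction -1.86, limma adjusted p = 0.00322). tRNA-Lys-TTT-1-6 differed by 3.05 in mCtx, 2.06 in mNPC and 2.61 in mESC. Neither of its interactions passed (limma adjusted p = 0.3 against mNPC and 0.615 against mESC).

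**Figure D5:**
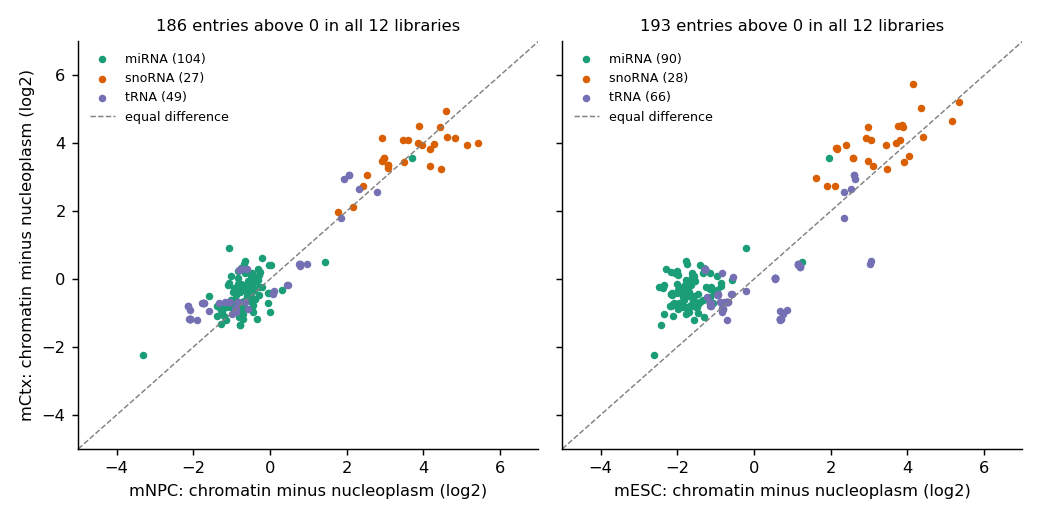
Difference in log2(RPM + 1), chromatin minus nucleoplasm, in mCtx set against the same in mNPC and in mESC; points are entries above 0 in all 12 libraries compared, and the line marks equal differences. The 90 miRNAs compared with mESC have medians of -0.41 in mCtx and -1.69 in mESC.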

How the data were processed

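The authors deposited RPM values, per the column names. The aligner and counting rule: not given in the sources used here. Starts in the deposited table counted from 0 and are printed from 1. Of 288 entries with an Ensembl identifier, 285 matched GENCODE positions on GRCm38.

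limma 3.58.1 in R 4.3.3 was fitted to log2(RPM + 1) over all 27 libraries, with a mean per group (9 groups, 18 residual degrees of freedom), trend and robust estimation, on 851 entries that reached 1 RPM in 3 or more libraries. Benjamini-Hochberg adjusted p values under 0.05 passed, over all entries tested. The fit was checked on simulated data. Tables and figures were made with Python 3.11.15, pandas 2.3.3, numpy 2.4.6 and matplotlib 3.10.9. A pseudocount of 1 understates fold changes of low entries.

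Named entries were the 10 largest rises and 10 largest falls above 0 in all 6 libraries, up to 6 called per direction at 0 in one fraction, the 5 most abundant per fraction, up to 4 most abundant of each list, and 5 per interaction; 1 of them is not reported here. Others (miR-124-3p, miR-5099, miR-3535, Gm22710 and further snRNAs, fragments, miRNA falls, mmu_piR_002142 and n-R5-8s1) were added after their values were seen. The comparison and lists were chosen with earlier results of these data known.

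Alternatives were scaling, floors, filters, pseudocount, left-out libraries and a replicate block.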

Additional observations from a re-analysis of the deposited data

Results flagged for a closer look

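The chromatin minus nucleoplasm difference of some named entries above 0 in all 12 libraries was not the same in mCtx as in another cell type, by the interaction term of limma at an adjusted p under 0.05. Values are log2, mCtx minus the other cell type. Against mNPC these were miR-92b-3p (1.97), miR-130a-3p (0.69) and miR-19a-3p (1.14).

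Against mESC, 6 copies of tRNA-Gly-GCC, which share reads, had -1.88 (2-4), -1.87 (2-5), -1.87 (2-8), -1.89 (2-7), -1.89 (2-3) and -1.86 (2-2). In the miR-30 family the values were 1.75 for miR-30a-5p, 0.78 for miR-30d-5p and 2.10 for miR-30e-5p. Members of the miR-17 clusters had 1.62 for miR-25-3p, 1.20 for miR-17-5p, 2.19 for miR-19a-3p, and 1.56 and 1.57 for the copies of miR-19b-3p on chromosomes 14 and X. Dlk1-Dio3 members miR-410-3p and miR-136-3p had 1.39 and 2.25.

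Other miRNAs were miR-22-3p (1.09), miR-26a-5p (1.38), miR-181c-5p (1.20), miR-27b-3p (1.71), miR-27a-3p (2.24), miR-143-3p (1.69), miR-130a-3p (1.87) and miR-101a-3p (2.58). All these miRNAs had a higher chromatin minus nucleoplasm difference in mCtx than in mESC. This held for the class as a whole, since the 90 miRNAs compared with mESC had a median interaction of 1.31. Some of the listed miRNA values lie below that median and others above it. The listing thus does not set these miRNAs apart from their class, and their interactions with class totals are not given here.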

How the results depend on the processing

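The main counts were 127 higher and 146 lower. With each library scaled to one median there were 231 lower (172 miRNA, 45 tRNA; 121 summed miRNAs). With class totals there were 73 higher (18 miRNA, 40 snoRNA; 15 summed), 71 miRNA lower, 44 summed lower, and 110 higher against mESC. With the 6 libraries alone 13 miRNA and 7 summed miRNAs were higher and 40 tRNA lower. With a common floor of 25.1 RPM there were 92 lower (67 miRNA, 6 snoRNA, 14 tRNA), and with one of 59.1 RPM 45 lower against mNPC. Restricted to entries above 0 in all libraries compared, there were 57 higher and 37 lower (miRNA 2 and 26, snoRNA 44 and 0, tRNA 10 lower), 0 and 0 against mNPC, 53 and 11 against mESC, and 1 and 22 summed. The tRNA share difference reversed, to -0.221 points as a share of the whole RPM scale, -0.00414 without chromatin replicate 3 and -0.0131 without nucleoplasm replicate 2. miR-30a-5p reversed to 0.52 (class totals) and 0.057 (without chromatin replicate 1), and Snord52 to -0.36 (class totals). Apart from what the construction of each alternative shows (fewer entries or libraries, classes centred on themselves), the cause was not tested. Leaving out single libraries gave 110 to 124 higher and 121 to 132 lower, a tRNA share difference of -0.0131 to 0.140 points, and -0.11 to 0.057 for miR-30a-5p. The replicate block gave 128 higher and 142 lower. Same-numbered libraries had correlated deviations of 0.127, -0.0295 and 0.179, and 0.269, 0.0538 and 0.476 over entries above 0 in both libraries. Not every pair passed 0.1 and the labels name no shared culture, so pairing was not assumed, although chromatin libraries 1 and 3 correlated best with their own number. Depth is unknown, and values near the floors (5.16 to 25.1 RPM) are the least certain.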

Other observations

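Among piRNA entries, which carry names from germline small RNA catalogues, mmu_piR_002142 had 143, 118 and 141 RPM in chromatin and 0, 10.1 and 8.26 RPM in nucleoplasm and was called higher (limma adjusted p = 3.66e-07). mmu_piR_005109, in an intron of Cdk8, was at 0 in chromatin and had 626, 624 and 293 RPM in nucleoplasm (limma adjusted p = 1.97e-06). The rRNA entry n-R5-8s1 had 144, 155 and 118 RPM in chromatin and 639, 828 and 623 RPM in nucleoplasm, without overlap and without a call (limma adjusted p = 0.398). Snora65, within the ribosomal protein gene Rpl12, had 74.6, 166 and 150.0 RPM in chromatin and was at 0 in nucleoplasm (limma adjusted p = 2.10e-15).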
